A study of Medicago sativa with 6 samples.

Results

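Four-haplotype gene sets with even copies are groups of 4 alfalfa genes, 1 on each of the haplotypes 1 to 4 of the same chromosome (the digit after the point in a sequence name such as chromosome 4.1), in which no copy took 40% or more of the counts. They were found from exon coordinates and counts. The 4 genes of a set had the same chain of exon lengths in transcript order and 3 or more exons. The set total was 100 or more counts in each of the 6 libraries, and the copy with the most counts over all libraries (the leading copy) stayed below 40% of the set. Of 164633 genes in the table, 95194 lay on the 32 chromosome sequences and had 3 or more exons. They gave 2940 four-haplotype sets, 931 of them with 100 or more counts in each library. Of these, 77 sets (308 genes) met the limit on the leading copy, and 854 (3416 genes) did not.

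The libraries came from flower, leaf, nodules, roots, seedpod and stem of Medicago sativa genotype RegenSY27x, an alfalfa genotype used for regeneration and transformation. Growth was at 22 °C in the light (16 hours) and 18 °C in the dark, with no treatment named. The tissues were 8 weeks old by the growth protocol, but a stage label with the number 20 does not say clearly in which unit, and the flower library is titled as flower bud. RNA from 3 replicates per tissue was pooled into 1 library, so no tissue had replicates, no p-value is given and every interval below is a 95% interval of counting error. The libraries held 8568581 to 9883512 counts. Depth differed little between them, and a share compares copies within 1 library, so it needs no scaling.

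Alfalfa is an autotetraploid: each chromosome is present as 4 homologous copies that pair freely in meiosis, and a gene is usually present as up to 4 alleles. Alleles can differ in their promoters and sequence, and in polyploid plants their contributions to the transcript pool are often unequal and can change between organs. A gene set that keeps similar contributions from all homologues is one extreme of that range. The copies of a set had the same summed exon length by the rule, so their counts can be set side by side without a length correction. This sum is called coding length below. That the exons are coding is inferred: 95.62% of the sums over all genes were divisible by 3. The files do not pair identifiers with gene names, none of the 308 identifiers matched the RefSeq alfalfa table (0 matches), and no function can be given. The row named for PHO2, a regulator of phosphate uptake, was not among the members (0 rows). How reads that match several copies were counted is not given in the sources used here, and the part of this in the shares was not tested. Whether the 4 haplotypes of the gene positions are those of the sampled genotype is not given either. A share is thus that of an annotated copy, which may differ from an allele of the plants. Sets are named below by chromosome and a letter for their order along haplotype 1.

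Over all libraries the leading copy held 27.7% to 39.9% of a set, with a median of 36.7%. These values chose the sets and are a description. The limit on the leading copy did not make all 4 copies equal: the medians of the copies ranked 2, 3 and 4 were 29.5%, 23.0% and 12.9%. In 1 set (7-j on chromosome 7), all 4 copies lay between 20 and 30% of the pooled counts, where 0.107% of all 931 sets did, and in 0 sets did they do so in every tissue. The lowest copy was below 10% of the pooled counts in 28 sets and below 5% in 15, against 90.4% and 79.9% of all 931 sets. The label "even copies" therefore holds for the limit on the leading copy, and not for all 4 copies in part of the sets.

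**Figure D1:**
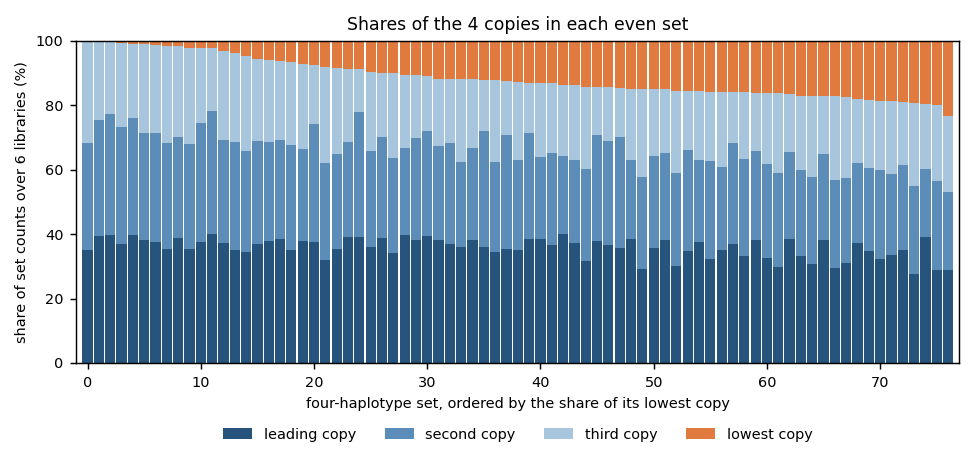
Each bar is 1 of the 77 sets, split into the shares (%) of its 4 copies in the counts summed over 6 libraries, with the leading copy at the bottom and the lowest copy at the top. The lowest copy ranges from 0.0778% to 23.2%, and in the 4 leftmost sets it is below 1%.

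In 4 sets, picked out after their values were seen, the lowest copy was below 1%, against 56.6% of all 931 sets. The copy of set 2-f on chromosome 2.1 (71349851 to 71355828) had 2 of 2569 counts, 1 each in nodules and roots and 0 in the other libraries. The remaining copies of that set held 35.03%, 33.2% and 31.7%, so that the set was even over 3 copies. The copy of set 5-c on chromosome 5.2 (22757236 to 22759848) had 2 of 1935 counts, 1 each in nodules and seedpod. In set 8-i the copy on chromosome 8.4 (46907366 to 46910721) had 18 of 7379 counts, with 2 to 5 in each library. In set 4-f the copy on chromosome 4.3 (41265955 to 41268959) had 107 of 14576 counts, 59 of them in nodules. The remaining copies held 39.48%, 36.02% and 24.39% in set 5-c, and 39.72%, 37.48% and 22.55% in set 8-i. In set 4-f they held 37.05%, 36.19% and 26.02%. The remaining copies of these 3 sets were thus less even than those of set 2-f. Of the 77 sets, 4 had 0 counts for a copy in some library, against 50.9% of all 931 sets. They are not the same 4 sets, since set 8-i had counts for each copy in every library. The same counts chose the sets, so nothing is read from the distance to the background.

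The values at the limit show how close the nearest sets lie to it. Just inside, set 8-d (24 exons) had a leading copy of 39.9%, followed by 38.3%, 19.4% and 2.39%. Set 8-e (10 exons) also had 39.9%, followed by 24.3%, 22.0% and 13.8%. Just outside, a set of 11 exons on chromosome 2 had 40.01%, 32.3%, 25.9% and 1.77%. A set of 9 exons on chromosome 1 had 40.04%, 31.9%, 25.4% and 2.67%. The limit thus divides a continuous range of shares.

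The features that the share limit did not use were read from the coordinates. The 77 sets had a median of 6 exons (3 to 24) and a median coding length of 1347 nucleotides (333 to 5391), against 7 exons and 1257 nucleotides in the other 854 sets. The median genomic span was 4422 nucleotides, against 4098. In 0 of the 77 sets were all 4 spans identical, and in 51 they lay within 10% of each other (66.2%, against 72.6% of the others). The copies of 64 sets lay on the same strand (83.1% against 82.9%), and in 62 the copies lay within 5 percentage points of each other in relative position along the chromosome (80.5% against 81.0%). No copy of a member set overlapped another annotated gene (0 sets), and neither did any gene of the whole table. The exon chain of 4 sets (1-f, 3-f, 8-c and 8-g) recurred elsewhere in the annotation, where further copies could share reads.

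All 8 chromosomes held member sets. Chromosome 8 had 15 (19.5%, against 12.9% of the other sets), chromosome 4 had 13, chromosome 7 had 12 and chromosome 6 had 5. Chromosome 1 had 9 (11.7% against 17.9%). Along the chromosomes, 10 of 69 neighbouring pairs of sets lay within 1000000 nucleotides on all 4 haplotypes. In 3 of these 10 pairs the same haplotype led, against 17 of all 69 pairs. These counts are descriptions, and no test of position was made.

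No haplotype dominated the sets. Haplotype 3 held the leading copy over all libraries in 26 sets, haplotype 1 in 19, and haplotypes 2 and 4 in 16 each. In the other 854 sets haplotype 4 led most often, in 28.6%, and 3 least often, in 23.0%. Averaged over the 77 sets with equal weight, the pooled shares of haplotypes 1 to 4 were 23.7%, 24.9%, 26.2% and 25.2%. In the 6 tissues taken singly, the mean share of haplotype 3 was the highest, between 26.1% and 26.9%, and that of haplotype 1 the lowest, between 22.99% and 24.1%. In these means over sets of different chromosomes, a common shift of 1 haplotype label in 1 tissue was not visible.

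Within single tissues the leading copy had a median share between 35.9% in flower and 37.1% in stem. The pooled limit did not hold in every tissue: 46 of 77 sets had a leading copy of 40% or more in at least 1 tissue, where 96.7% of all 931 sets did. With the lower end of the interval at 40% or more, 12 sets remained, against 91.8%. Leaf had 21 such sets by the observed share, flower and nodules 20 each, roots 14, stem 12 and seedpod 11. The highest single value was 52.7% (44.3 to 61.0), in seedpod, for the haplotype 3 copy of set 4-l. Since the same counts chose the sets, nothing is read from the distance to the background.

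The limit was also applied to 5 libraries at a time, and the shares were read in the library left out. Each set still needed 100 or more counts in that library. When the limit was applied to 5 libraries, 77 to 83 of the 931 sets met it, depending on the library left out, and between 71 and 76 of them were among the 77 members. In the left-out library the leading copy was below 40% in 81.8% of the chosen sets for seedpod, 76.5% for stem, 75.6% for roots, 70.5% for flower, 68.3% for nodules and 61.5% for leaf. Over all 931 sets the same limit held in 9.77% for seedpod, 9.35% for stem, 9.35% for roots, 7.95% for flower, 7.63% for nodules and 7.73% for leaf. The copy that led in the other 5 libraries also led in the left-out one in 67.1% of sets for nodules and in 75.3% to 80.5% for the others. No background over all 931 sets is given for that measure. A stricter measure, the same copy leading in all 6 tissues, held in 83.2% of all 931 sets and in 33.8% of the 77 members. The limit used the same counts, so nothing is read from this difference. The 931 sets include the chosen ones. The libraries come from 1 genotype, and whether the tissues shared plants is not stated. Copy ratios or read assignment common to the 6 libraries would carry over to the left-out one, which was not tested. The values in the left-out library are thus a description and no independent support.

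The copy with the most counts was the same in all 6 tissues in 26 sets. It was 1 of 2 copies in 39 sets, and 3 or more copies took the lead in 12. The background for 1 constant leader was 83.2% of all 931 sets. The same order of all 4 copies in all tissues was found in 8 sets, where 46.1% of the 931 had it. Close copies change places by counting error alone, so a firm lead was defined as a count of at least 5 for every 4 of the next copy, with the interval of the ratio above 1. Of 462 values (77 sets in 6 tissues), 167 had a firm lead. No tissue had a firm lead in 15 sets, and 57 sets had firm leads always held by the same copy. In 3 sets (4-c, 6-e and 8-m) 1 copy led firmly in all 6 tissues. No background over all 931 sets is given for firm leads. The limit on the leading copy itself favours close copies, so nothing is read from the number of firm leads.

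**Figure D2:**
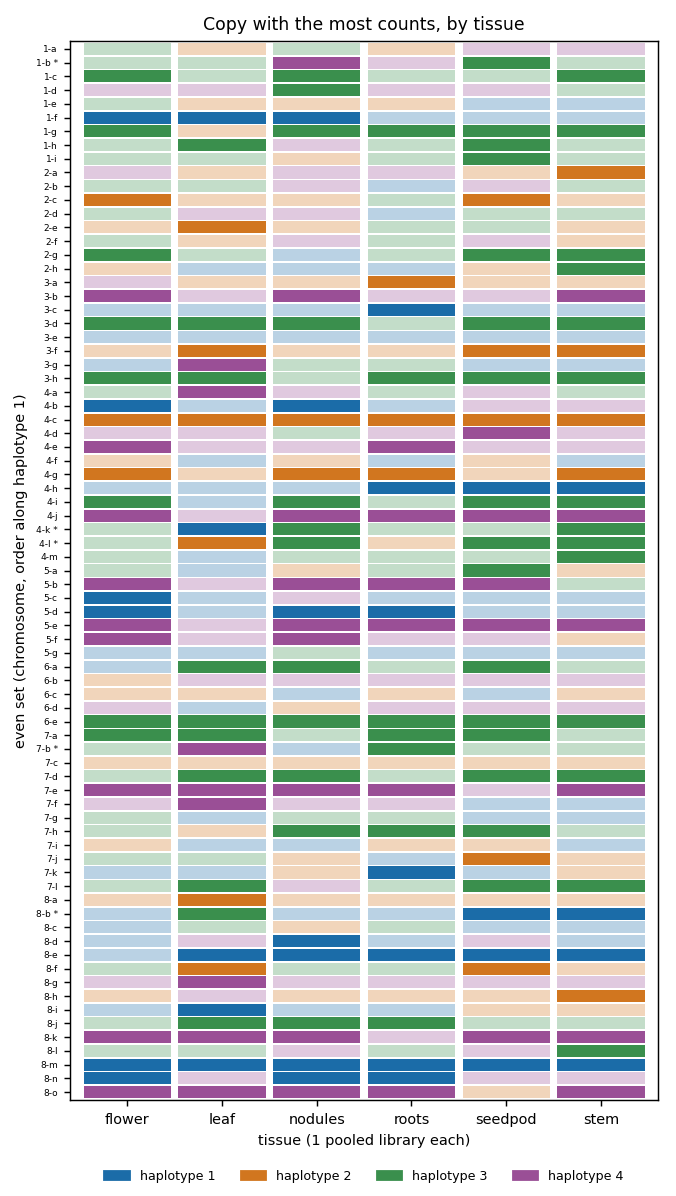
Each row is 1 of the 77 sets and each column a tissue; the colour is the haplotype of the copy with the most counts, in full colour where its lead was firm (167 of 462 values) and pale where it was not. A star marks the 5 sets in which different copies led firmly in different tissues.

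Different copies led firmly in different tissues in 5 sets (1-b, 4-k, 4-l, 7-b and 8-b), or 6.49%, where the background was 3.01% of all 931 sets. With 300 or more counts in each library, 1 of 33 sets remained, against 2.37% of 380 sets, and with 1000 or more 0 of 11, against 2.38% of 84. Leaf took part in 4 of the 5 changes. In the fifth, set 1-b, the leaders of nodules and seedpod differed. Without leaf 1 set changed its leader, and with a minimum ratio of 1.5 also 1 set did (set 7-b). Over all libraries the leading and second copies had medians of 36.7% and 29.5% in the members. In the other 854 sets these medians were 65.3% and 23.9%. The part of this in the difference from the background was not tested.

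In set 4-l (12 exons, 2706 nucleotides; haplotype 1 copy at 71335028 to 71342493 of chromosome 4.1) the lead lay with haplotype 2 in leaf and haplotype 3 in seedpod, nodules and stem. In leaf the haplotype 2 copy, MS.gene82211, led with 374 of 951 counts, 1.47 times the haplotype 3 copy (1.252 to 1.73). In seedpod the haplotype 3 copy, MS.gene53301, led with 78 of 148 counts, 2.69 times the haplotype 2 copy (1.74 to 4.27). The haplotype 3 copy took 52.7% in seedpod, 49.2% in nodules, 42.0% in flower, 39.9% in stem, 35.5% in roots and 26.7% in leaf. The haplotype 2 copy took 39.3% in leaf, 39.2% in roots, 32.1% in flower, 28.3% in stem, 27.9% in nodules and 19.6% in seedpod. The haplotype 3 copy thus had its lowest share in leaf, the tissue where the set as a whole was highest. Its level in leaf, at 35.4 TMM CPM, was still the highest of the 6 (8.69 to 14.4 in the others). TMM CPM are counts per 1000000 counts of a library scaled by the trimmed mean of M-values.

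Set 4-k (8 exons, 1839 nucleotides; 70162456 to 70170811 on chromosome 4.1) starts 1172572 nucleotides from set 4-l on haplotype 1 and also had a smaller haplotype 3 share in leaf. That copy took 49.8% in nodules (235 counts), 41.4% in stem, 39.7% in flower, 38.0% in roots, 36.1% in seedpod and 25.6% in leaf (113 counts). The haplotype 1 copy led in leaf with 38.3%, 1.496 times the haplotype 3 copy (1.17 to 1.92). In nodules the haplotype 3 copy led by 1.70 times (1.37 to 2.12). The level of the haplotype 3 copy was 28.7 TMM CPM in nodules, 16.9 in stem and 14.4 to 15.7 in the other tissues. Leaf was thus at the level of the remaining tissues for this copy, while the haplotype 1 copy was highest in leaf at 23.5 TMM CPM.

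In set 8-b (11 exons, 1746 nucleotides; 28040165 to 28043788 on chromosome 8.1) the haplotype 3 copy led in leaf with 169 of 412 counts. It took 41.0% in leaf (36.2 to 45.9), 29.4% in roots, 28.6% in nodules, 24.5% in seedpod, 23.7% in stem and 23.3% in flower. The haplotype 1 copy took 36.8% in stem, 35.6% in seedpod, 34.5% in nodules, 32.9% in flower, 29.6% in roots and 23.1% in leaf. By its interval the leaf share of the haplotype 3 copy lay above those of the other 5 tissues. The leaf share of the haplotype 1 copy was the lowest, but its interval overlapped with that of roots. The haplotype 3 copy led by 1.74 times in leaf (1.35 to 2.26), and the haplotype 1 copy by 1.47 times in stem (1.14 to 1.89).

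In set 7-b (5 exons, 1254 nucleotides; 13436138 to 13440806 on chromosome 7.1) the haplotype 4 copy held 46.6% in leaf (38.4 to 55.0; 69 of 148 counts) and 20.8% to 24.0% in the other 5 tissues. Its lead in leaf was 2.16 times (1.40 to 3.39). In roots the haplotype 3 copy led by 1.52 times (1.03 to 2.28), and its share was 36.6% there and 20.9% in leaf. Stem and seedpod, with the most counts, had no firm leader.

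Set 1-b (11 exons, 1275 nucleotides; 51598125 to 51603768 on chromosome 1.1) had the fewest counts of the 5, with 108 to 257 per library. The haplotype 4 copy, MS.gene036056, took 38.2% in nodules, 34.3% in roots, 30.9% in stem, 30.7% in flower, 27.5% in seedpod and 8.33% in leaf (9 counts; 3.88 to 15.2). The haplotype 3 copy led in seedpod with 39.8%, 1.45 times the haplotype 4 copy (1.02 to 2.06). The haplotype 4 copy led in nodules by 1.62 times (1.07 to 2.47). Both intervals end close to 1. The share of the haplotype 4 copy in leaf did not overlap by its interval with any of the other 5 tissues.

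A shift of a copy, with or without a change of leader, was called where its share in the highest tissue was at least 10 percentage points above that in the lowest, with intervals that did not overlap. By this rule 62 of 308 copies in 38 of 77 sets shifted (49.4% of sets), where the background was 37.5% of all 931 sets. A copy that holds little of its set has little room to shift by 10 points. Of all 931 sets, 56.6% had a copy below 1% of the pooled counts, against 5.19% of the members. The part of this in the difference was not tested. In 19 sets 1 copy shifted, in 14 sets 2 copies, and in 5 sets 3 copies. Copies of 1 set share a total, so a gain of 1 is a loss of others. The intervals were not adjusted for the number of copies and tissues compared. With 300 or more counts in each library, 11 of 33 member sets had a shift, against 27.9% of 380. With 1000 or more, 1 of 11 had one (set 2-e), against 13.1% of 84. Sets with more counts thus had fewer shifts, among members and over all sets.

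**Figure D3:**
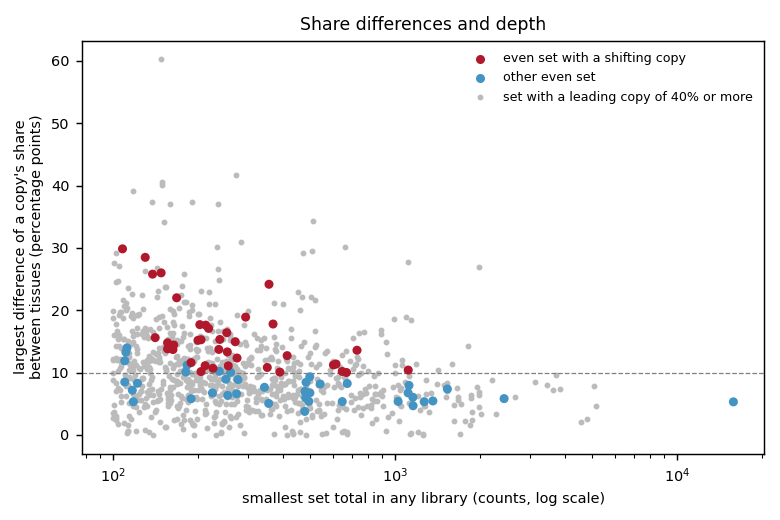
The x axis is the smallest set total in any library (counts, log scale) and the y axis the largest difference of a copy's share between tissues (percentage points), with 1 point per set; red and blue points are the 77 members and grey points the other 854 sets. The 38 members with a shift lie above the dashed line at 10 points, mostly at low totals, and the deepest member lies at 15801 counts with a difference of 5.29 points.

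Leaf stood apart in these shifts. Of the 62 shifting copies, 19 had their highest share in leaf and 21 their lowest, more than in any other tissue on either side (7 to 10 highest and 5 to 10 lowest). Without leaf 32 copies shifted, and without any 1 of the other tissues 52 to 55. The largest share difference of a copy between leaf and the mean of the other 5 tissues had a median of 4.85 points, against 3.43 to 3.99 points for the other tissues. Among the 33 sets with 300 or more counts in each library the leaf value was 3.71 points, against 2.42 to 3.37. The other 854 sets had 4.14 points in leaf and 2.57 to 2.94 points in the other tissues, so a larger leaf difference was not particular to the members. Set totals were lowest in leaf, with a median of 478 counts against 507 to 665, and the part of this depth in the result was not tested. Between pairs of tissues the median difference was smallest for seedpod and stem, at 3.45 points, and for flower and roots, at 3.63 points. Leaf and flower had the largest, at 6.40 points.

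The widest gap between intervals was in set 3-g (7 exons, 1131 nucleotides; 88232375 to 88236133 on chromosome 3.1), whose total was also strongly tissue dependent. Its haplotype 3 copy, MS.gene40273, took 37.9% in nodules (34.2 to 41.7; 256 counts), 32.8% in flower, 31.5% in roots, 29.0% in seedpod, 24.6% in stem and 9.39% in leaf (8.43 to 10.4; 318 counts). The difference between nodules and leaf was 28.5 points. The haplotype 4 copy, MS.gene72035, took 37.2% in leaf and 18.1% in nodules, and the haplotype 2 copy 25.2% in leaf and 13.5% in nodules. The haplotype 1 copy held 25.5% to 35.8% in all tissues. As levels, the haplotype 4 copy was at 175.6 TMM CPM in leaf and 14.9 in nodules, whereas the haplotype 3 copy was at 44.3 in leaf and 31.3 in nodules. All 4 copies were highest in leaf, but the haplotype 3 copy by a far smaller ratio to nodules. No change of leader was called for this set, since the lead in nodules was 1.24 times.

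**Figure D4:**
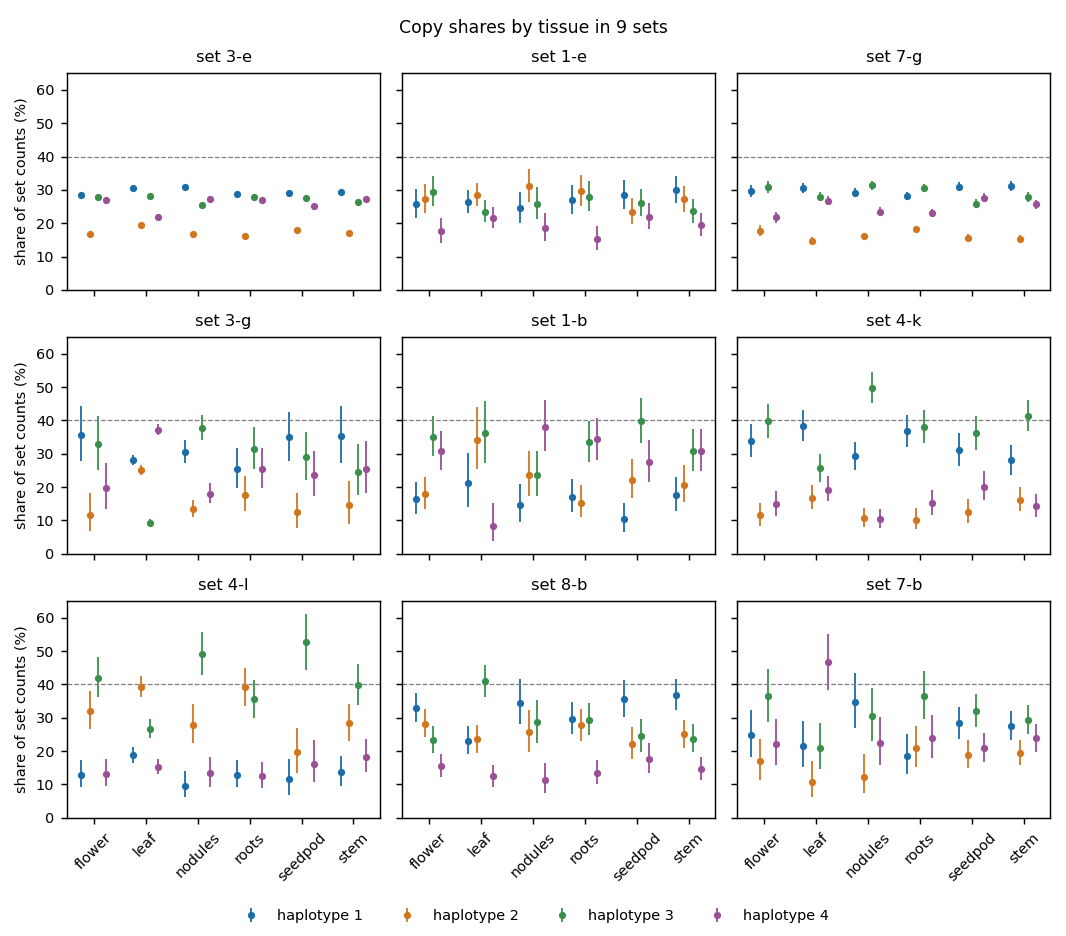
Points are the shares (%) of the 4 copies in the counts of their set in each tissue, bars are 95% exact intervals of counting error, and the dashed line is at 40%. The 3 sets with the lowest maximum of the leading share are in the top row. In each of the others (3-g, 1-b, 4-k, 4-l, 8-b and 7-b) a copy has a leaf interval apart from those of the remaining tissues. An example is the haplotype 3 copy of set 3-g, with 9.39% in leaf.

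The most even sets were those whose leading copy stayed lowest in its highest tissue. In set 3-e (4 exons, 873 nucleotides; 57560687 to 57562485 on chromosome 3.1) it never exceeded 30.9%. This set also had the most counts of all, 154371, or 15801 to 37906 per library. By counting error alone, its shares were known within about 1 point. Haplotype 1 led in all 6 tissues, with 30.9% in nodules, 30.5% in leaf, 29.5% in stem, 29.2% in seedpod, 28.8% in roots and 28.4% in flower. Its lead over the next copy was between 1.02 and 1.14 times and never firm by the rule. The haplotype 2 copy was lowest throughout, at 16.3% to 19.4%. The haplotype 4 copy took 21.9% in leaf (21.2 to 22.5) and 25.3% to 27.2% in the other tissues. That leaf value did not overlap with the others, though the difference stayed under 10 points.

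In set 1-e (4 exons, 1524 nucleotides; 67447937 to 67452600 on chromosome 1.1) the highest share of any copy was 31.1%, in nodules, at 344 to 661 counts per library. The copy with the most counts was that of haplotype 2 in leaf, nodules and roots, 1 in seedpod and stem, and 3 in flower, with no firm lead in any tissue. The pooled shares were 27.7% for haplotype 2, 27.2% for 1, 25.7% for 3 and 19.4% for 4. The intervals of the haplotype 1, 2 and 3 copies overlapped in every tissue. In set 7-g (6 exons, 1233 nucleotides; 43692483 to 43696367 on chromosome 7.1) the highest share was 31.4%, at 2432 to 5789 counts per library. Haplotype 3 had the most counts in flower, nodules and roots and haplotype 1 in leaf, seedpod and stem, by 1.04 to 1.12 times the next copy and with no firm lead in any tissue. The haplotype 2 copy of this set was on the opposite strand and was lowest in every tissue, at 14.7% to 18.2%.

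Among the 3 sets with the most counts, 3-e was followed by 3-f with 53250 and 2-e with 42343. In set 3-f (4 exons, 1416 nucleotides; 65415608 to 65417370 on chromosome 3.1) haplotype 2 led everywhere, with 42.7% in leaf, 40.2% in stem, 39.3% in seedpod, 35.9% in flower, 35.8% in roots and 35.3% in nodules. The haplotype 1 copy was second everywhere and took 33.3% in flower, its highest, and 24.8% in leaf, its lowest. Copy shares moved by at most 8.44 points while the set total differed 31.4-fold between seedpod (2113 TMM CPM) and leaf (67.3). In set 2-e (5 exons, 711 nucleotides; 65717410 to 65723554 on chromosome 2.1) haplotypes 2 and 3 were close, at 35.9% and 36.1% of the pooled counts. The haplotype 2 copy had 44.3% in leaf (42.4 to 46.2), 33.9% in roots and 35.2% to 38.8% elsewhere. The haplotype 3 copy stayed between 33.9% and 37.7%, and the haplotype 4 copy had its lowest share, 8.68%, in leaf. Haplotype 3 had the most counts in roots and seedpod, by 1.07 to 1.08 times, which was not a firm lead.

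Levels of the set totals differed between tissues in most sets. The ratio of the highest to the lowest tissue in TMM CPM had a median of 2.71 (1.21 to 41.8), against 3.06 in the other 854 sets. It was 2 or more in 56 sets, and 4 or more in 23 (29.9%), where the background was 37.1% of all 931 sets. Leaf was the highest tissue in 32 sets (41.6%, against 39.3% of the other 854) and the lowest in 24. Flower was highest in 12 sets (15.6% against 14.5%), nodules in 11 (14.3% against 18.7%), roots in 8 (10.4% against 8.78%), and seedpod and stem in 7 each (9.09%, against 11.9% for seedpod and 6.67% for stem). The members' shares thus lay within 5 percentage points of those of the other sets in each tissue. The count for leaf was 22 with library totals and 34 with DESeq2 size factors (32 with TMM). That for nodules was 5 and 10, that for stem 17 and 6, and that for roots 12 and 8. Set against library totals, TMM shifted log2 levels by 0.30 in leaf and 0.27 in nodules. Without leaf, 11 sets were left at 4 or more. In bulk tissue, fewer cells of a type and less RNA per cell cannot be told apart.

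**Figure D5:**
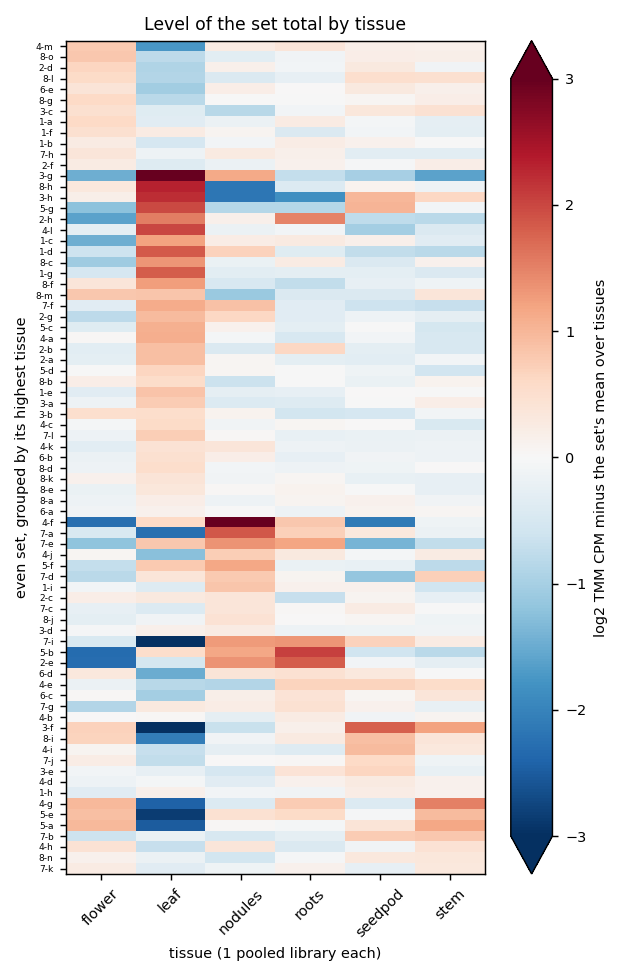
Each row is 1 of the 77 sets, grouped by its highest tissue, and the colour is the log2 TMM CPM of the set total minus the set's mean over the 6 tissues. Leaf is the highest tissue in 32 rows and the lowest in 24; set 4-f in nodules and set 3-g in leaf have the highest values relative to their means.

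The largest ratio was in set 4-f (6 exons, 1116 nucleotides; 38156436 to 38159400 on chromosome 4.1). Its total was 1128 TMM CPM in nodules, 228 in roots, 197 in leaf, 119 in stem, 30.2 in seedpod and 27.0 in flower. Nodules stood 41.8-fold above flower (37.0 to 47.3), or 31.0-fold with library totals. The haplotype 1 copy, MS.gene08572, kept between 34.2% and 38.4% of the set in all tissues. The haplotype 2 copy took 45.8% in seedpod and 30.8% in stem, a difference of 14.9 points, and 37.8% in nodules. The 3 copies above 1% of the set were thus far higher in nodules than in flower. In set 3-g leaf was at 471.9 TMM CPM and stem at 12.5, a 37.8-fold ratio (31.7 to 45.4), or 26.0-fold with library totals. The largest share difference of a copy was 28.5 points in set 3-g and 14.9 points in set 4-f, both called as shifts, and 8.44 points in set 3-f, where none was called.

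All 4 copies had their highest TMM CPM in the same tissue in 41 of 77 sets (53.2%), where the background was 35.7% of all 931 sets. Of all 931 sets, 56.6% had a copy below 1% of the pooled counts, against 5.19% of the members. The highest tissue of a copy with few counts is poorly determined, and the part of this in the difference was not tested.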

How the data were processed

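Raw counts of 6 libraries were deposited in 1 table, by gene, with exon positions and strand, per the file headers. The summed exon length, a quantity other than a count, is also the authors' deposited value. Per the submitters' processing notes the tools were Trimmomatic, FastQC, featureCounts and edgeR (no versions). Aligner, build, strand setting and handling of multi-mapping reads were not given in the sources used here, and all positions are on the files' own, unnamed build. No sequence of that build was used here.

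Members and rules were chosen with earlier results of these data known. Exon lengths were reversed for genes on the minus strand. Groups with more than 4 genes or without all 4 haplotypes were left out. Shares carry exact Clopper-Pearson 95% intervals and ratios of copies exact conditional ones. Both reflect counting error alone, because each tissue had 1 library. They treat each read as independent, although reads were not traced to single molecules, so they may be too narrow. Levels are counts per 1000000 of the library total times the TMM factor over all genes (edgeR 4.0.16, R 4.3.3). DESeq2 1.42.0 size factors were an alternative. Other work used Python 3.11.15 with scipy 1.17.1, numpy 2.4.6, pandas 2.3.3 and, for plots, matplotlib 3.10.9. The calls were also run on simulated counts with counting error alone, so variation between libraries was not covered.

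Sets were named by rule: the 3 with the most counts, the 4 copies with the widest gap between intervals, the 4 changes of leader with the largest weaker lead, the 3 lowest maxima of the leading share, the 2 largest level ratios, and 2 sets on either side of the limit. Sets at extremes outside these rules were picked after their values were seen. Identifiers are given only for a few copies.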

Additional observations from a re-analysis of the deposited data

How the results depend on the processing

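The number of even sets followed the limit, with 24 sets below 35% and 153 below 45%, against 77 below 40%. It was 41 when the copies also had the same strand and spans within 10%. Minimum totals of 50 and 200, at least 5 exons, equal weights for the tissues and each left-out tissue kept it within 1.5 times (56 to 106). Shifting copies numbered 118 at 5 points, 6 at 20 points, 40 with 99% intervals and 32 without leaf, against 62. Changes of leading copy numbered 15 with no minimum ratio, 1 at a ratio of 1.5, 3 with 99% intervals and 1 without leaf, against 5. Sets with a leading copy at 40% or more in some tissue numbered 46, with 10 at 45%, 2 at 50% and, chosen after seeing the data, 12 by the lower interval end. Sets with a level ratio of 4 or more numbered 23, with 56 at a ratio of 2, 12 at 10 and 11 without leaf, and 23 to 27 under the other scalings. Reading a left-out library, and dropping sets whose exon chain recurs (73 sets left) or whose copies overlap other genes (77 left), were also chosen after seeing the data. The cause of these changes was not tested beyond the construction of each alternative. No paired analysis was possible because each tissue has 1 library. Set totals of 108 to 37906 counts per library limit which share differences can be seen, and 44 of 77 sets had fewer than 300 counts in some library.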
